A study of Rattus norvegicus with 10 samples.

Results

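The organic cation and carnitine transporters of renal cortex were described in male and female PCK rats, as the 6 genes *Slc22a2*, *Slc22a3*, *Slc22a4*, *Slc22a5*, *Slc47a1* and *Slc47a2* of the 32545 genes in the RNA-seq table. They were taken by gene symbol, and each symbol has 1 entry. Expression was measured by poly(A)-selected RNA-seq in 5 males and 5 females, with 1 library per rat, and is given as FPKM, a count of fragments corrected for gene length and sequencing depth. PCK rats (PCK/CrljCrl-Pkhd1pck/Crl) carry a mutation in *Pkhd1* and are a model of autosomal recessive polycystic kidney disease. Both groups carry this mutation, the labels name no treatment, and all 10 samples are PCK rats. The labels give an age of 12 to 14 weeks and the tissue as kidney, while the study's methods give a slightly younger age and name the tissue as snap-frozen cortex of kidneys flushed with buffer. The rats were siblings within different litters, and the litter of each rat was not used here. The comparison asks how the transporters differ between the sexes in the cystic cortex.

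Proximal tubule cells secrete organic cations in 2 steps. Cations enter from the blood through basolateral carriers of the Slc22 family, of which OCT2 is encoded by *Slc22a2*. They leave into the lumen through MATE1, encoded by *Slc47a1*, which exchanges a cation for a proton. Creatinine, metformin, cisplatin and monoamines are known substrates of this route. OCTN2, encoded by *Slc22a5*, reclaims filtered carnitine with sodium, and its neighbour OCTN1, encoded by *Slc22a4*, carries ergothioneine. Renal OCT2 of the rat is known to be higher in males and to respond to testosterone.

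The start sites of 3 of these genes are shown because *Slc22a2* had the largest difference between the sexes of the members tested and the adjacent pair *Slc22a5* and *Slc22a4* contrast with it in base composition. Each line gives the 250 bases before the start of the gene on its own strand, 5′ to 3′, from RefSeq on the build GRCr8, with CpG dinucleotides in capitals. The *Slc22a2* window lies on chromosome 1 from 50711020 to 50711269 (minus strand), the *Slc22a5* window on chromosome 10 from 38536073 to 38536322 (minus strand) and the *Slc22a4* window on chromosome 10 from 38679921 to 38680170 (minus strand).
Slc22a2: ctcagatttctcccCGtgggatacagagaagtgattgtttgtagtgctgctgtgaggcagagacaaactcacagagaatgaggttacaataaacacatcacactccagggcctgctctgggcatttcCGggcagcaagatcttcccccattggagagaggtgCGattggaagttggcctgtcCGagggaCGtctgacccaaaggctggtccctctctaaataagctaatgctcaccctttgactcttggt
Slc22a5: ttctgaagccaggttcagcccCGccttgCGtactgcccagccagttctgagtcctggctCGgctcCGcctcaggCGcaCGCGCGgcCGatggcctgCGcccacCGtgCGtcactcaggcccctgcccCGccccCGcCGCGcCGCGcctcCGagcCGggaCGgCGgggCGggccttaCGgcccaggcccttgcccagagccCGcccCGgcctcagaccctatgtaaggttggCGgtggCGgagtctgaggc
Slc22a4: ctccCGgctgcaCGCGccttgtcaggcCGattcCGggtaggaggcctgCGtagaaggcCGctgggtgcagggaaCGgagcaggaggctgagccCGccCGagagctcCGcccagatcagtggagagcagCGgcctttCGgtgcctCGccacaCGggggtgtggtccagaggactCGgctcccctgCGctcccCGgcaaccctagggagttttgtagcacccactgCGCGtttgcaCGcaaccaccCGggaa

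The *Slc22a2* window held 5 CpG and had a GC content of 51.2%, which are also the medians of all 33469 windows of the table. The *Slc22a5* window held 28 CpG at 74.4% GC, and the *Slc22a4* window held 22 CpG at 68.4% GC. The windows of *Slc47a2* (21 CpG, 62.4% GC) and *Slc22a3* (4 CpG, 48.8% GC) were also matched, so 5 of the 6 genes had an entry. Motifs were searched on both strands of these 5 windows. The glucocorticoid receptor half-site AGAACA, held by 17.5% of all windows, the nuclear receptor half-site AGGTCA, held by 14.1%, and the TATA box TATAAA, held by 12.9%, had no match in them. The E-box CACGTG, held by 5.59% of all windows, matched once, in *Slc47a2* from 35 to 30 bases before the start. A match or its lack describes only these letters in this window.

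Between 13912569 and 20285911 reads per library fell on genes, and 18018 to 18639 genes had a read. The 4 Y-linked genes tested were lower in all 5 females than in all 5 males, with *Eif2s3y* at 39.4 ± 5.95 in males and 0.126 ± 0.127 FPKM in females (SD, n = 5), so the sex labels and the data go together. Female 2 and male 5 stood apart from the other libraries on the second and the third principal component, and female 2 had the highest share of reads on mitochondrial genes (26.8%, against 14.3% to 19.1% in the other 9 libraries). Female 2 and male 5 also had the lowest summed level of 8 markers of the S1 and S2 segments of the proximal tubule (1248 and 1139 FPKM, against 1510 to 2636 FPKM in the others). Proximal tubule genes were abundant in this cortex, with *Slc34a1*, the sodium-phosphate cotransporter, at 1262 ± 292 in males and 1253 ± 364 FPKM in females (SD, n = 5).

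Of 17631 genes whose mean reached 0.1 FPKM, 2.40% had an adjusted p of at most 0.05 between the sexes, 1.26% higher in females and 1.14% lower (limma on log2(FPKM + 0.1), Benjamini-Hochberg). With an absolute log2 fold change of at least 1 as well, 1.32% were called, and 0.698% were called lower in females. None of the 5 transporters that passed the filter on low values was called by limma at the adjusted p, and none was called by limma-voom on recovered reads. At an unadjusted p of at most 0.05, *Slc22a2* alone of these 5 genes passed, where 15.7% of all genes tested did. No member had FPKM ranges that were separate between the sexes, where 5.10% of all genes tested had.

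**Figure D1:**
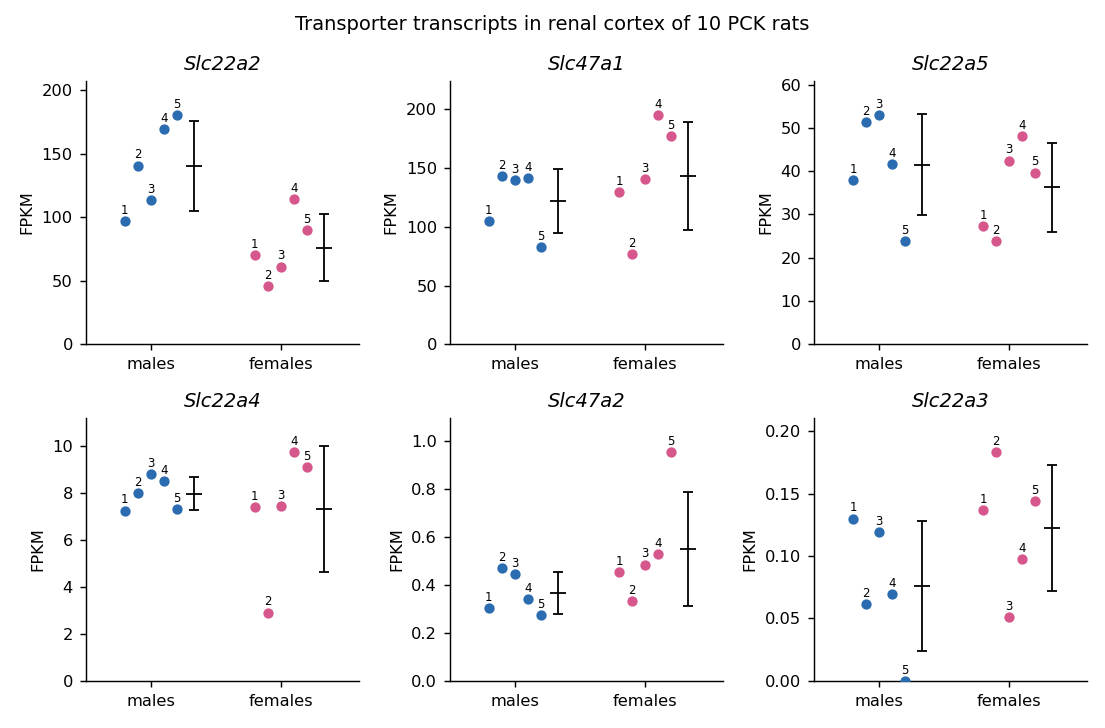
Level of each transporter in each rat. The vertical axes give FPKM from 0, points are single rats with their number, and bars give the mean ± SD of 5 males or 5 females. *Slc22a2* lies between 97.1 and 180 FPKM in males and between 45.5 and 114 FPKM in females, and the other 5 genes overlap more widely.

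*Slc22a2* (ENSRNOG00000016625, Rnor_6.0, chromosome 1 from 48317995 to 48360261, minus strand), which encodes the basolateral cation carrier OCT2, had a lower mean in females. Its level was 97.1, 141, 114, 169 and 180 in males 1 to 5, and 70.1, 45.5, 61.1, 114 and 89.6 FPKM in females 1 to 5. The female mean of 76.1 ± 26.6 FPKM (SD, n = 5) was 54.3% of the male mean of 140 ± 35.4 FPKM (SD, n = 5). All 5 females lay below the male median, 4 of 5 lay below the lowest male, and female 4 alone reached into the male range. The log2 fold change of females over males was -0.91 (SE 0.25, 95% interval -1.46 to -0.37). Its limma p of 0.00358 became an adjusted p of 0.0909 over all genes, and an exact permutation test on the means gave p = 0.0238 (two-sided), where no p below 0.00794 is possible in groups of 5. This was 1 of 6 members tested in this way. It was covered by 1427 to 7767 reads in each rat, far more than for the rarest members.

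The call for *Slc22a2* depended on single libraries and on scaling. Without female 4, the log2 fold change was -1.08 with a limma adjusted p of 0.0464, where 1.88% of genes were called. With quantile normalization it was -0.995 with an adjusted p of 0.0382, where 2.50% of genes were called. Without male 5 and female 2 together, it was -0.65 with an adjusted p of 0.189, and the exact permutation test gave p = 0.0857. This removal was not planned. It took out the highest male and the lowest female for *Slc22a2*, which by itself makes the difference smaller. A protein-coding gene with only an assembly name, AC114389.1 (ENSRNOG00000053944), lies within *Slc22a2* on the plus strand from 48319522 to 48323700. Whether counting used strand is not given in the sources used here, but at most 34 reads in any rat were counted on AC114389.1 (0.933 ± 0.195 in males and 0.425 ± 0.265 FPKM in females, SD, n = 5).

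Within each sex, *Slc22a2* followed the summed markers of the last segment of the proximal tubule, S3, where rat OCT2 is known to be present. The summed FPKM of 6 S3 markers was 931 to 1823 in males and 1173 to 2422 in females, most of it from *Slc3a1* and *Slc7a13*. The order of the rats by *Slc22a2* was male 5, 4, 2, 3 and 1 and female 4, 5, 1, 3 and 2, which is their order by the S3 sum except that the top pair of each sex changed places. After subtracting the mean of each sex, the r of *Slc22a2* over the 10 rats was 0.83 to 0.92 with *Slc7a13*, *Slc5a10*, *Slc6a18* and *Slc3a1*, but 0.47 with *Slc1a1*, a glutamate transporter, and 0.44 with *Slc16a9*. Among the 5 males, neither *Slc1a1* nor *Slc16a9* followed the order of *Slc22a2*, while among the 5 females *Slc16a9* had exactly its order and *Slc1a1* a similar one. By the S1 and S2 sum the order was different in males (rank correlation -0.7, n = 5). Male 5 had the lowest sum of any rat and the highest *Slc22a2*. In females the order by this sum was similar to that of *Slc22a2* (rank correlation 0.7, n = 5).

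As a percent of the S3 sum, *Slc22a2* was 10.4, 9.47, 11.1, 9.29 and 10.1 in males 1 to 5. In females 1 to 5 it was 3.54, 3.88, 5.16, 4.98 and 3.70. All males therefore lay between 9.29% and 11.1% and all females between 3.54% and 5.16%, with no overlap, where 2.08% of all genes tested have separate ranges by the same measure. The SD between males was 0.733 for a mean of 10.1%, against 35.4 for a mean of 140 FPKM (n = 5). Between females it was 0.762 for a mean of 4.25%, against 26.6 for a mean of 76.1 FPKM (n = 5). The ratio of *Slc22a2* to a single S3 marker was separate between the sexes for 4 of the 6 markers. The share of all genes was not computed for single markers, so this count is only a description. To *Slc3a1*, a subunit of the cystine transporter, the ratio was 0.173 to 0.185 in males and 0.0714 to 0.109 in females. To *Slc6a18*, an amino acid transporter, it was 1.13 to 1.37 in males and 0.491 to 0.790 in females. To *Slc1a1* and *Slc16a9* the ranges overlapped. Of the other members, *Slc22a4* had 0.410% to 0.862% of the S3 sum in males and 0.248% to 0.631% in females, and *Slc22a5* and *Slc47a1* overlapped more widely.

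With the log2 S3 sum as a covariate in limma, the log2 fold change of *Slc22a2* was -1.21 (SE 0.13, 95% interval -1.49 to -0.93) with an adjusted p of 0.000652, where 2.76% of genes were called. Leaving out each rat in turn gave -1.31 to -1.11 with adjusted p of 0.000375 to 0.0049. This covariate was chosen after *Slc22a2* had been seen to follow these markers, so its p does not stand as independent evidence. The S3 list itself had 0 of 6 genes called by limma or limma-voom. At an unadjusted p of at most 0.05, 3 of 6 genes of the list passed, in different directions, where 15.7% of all genes tested did. *Slc7a13*, one of its defining genes, had a higher mean in females, at 361 ± 208 in males and 695 ± 300 FPKM in females (SD, n = 5, adjusted p = 0.312). *Slc1a1* had a lower mean in females, at 60.3 ± 8.04 and 44.7 ± 7.19 FPKM (SD, n = 5, adjusted p = 0.112), as did *Slc16a9*, at 44.9 ± 11.7 and 31.5 ± 8.83 FPKM (SD, n = 5, adjusted p = 0.266). With the S1 and S2 sum as a covariate the log2 fold change was -0.92 with an adjusted p of 0.0722. In bulk tissue, fewer cells of a type and less RNA per cell cannot be told apart.

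**Figure D2:**
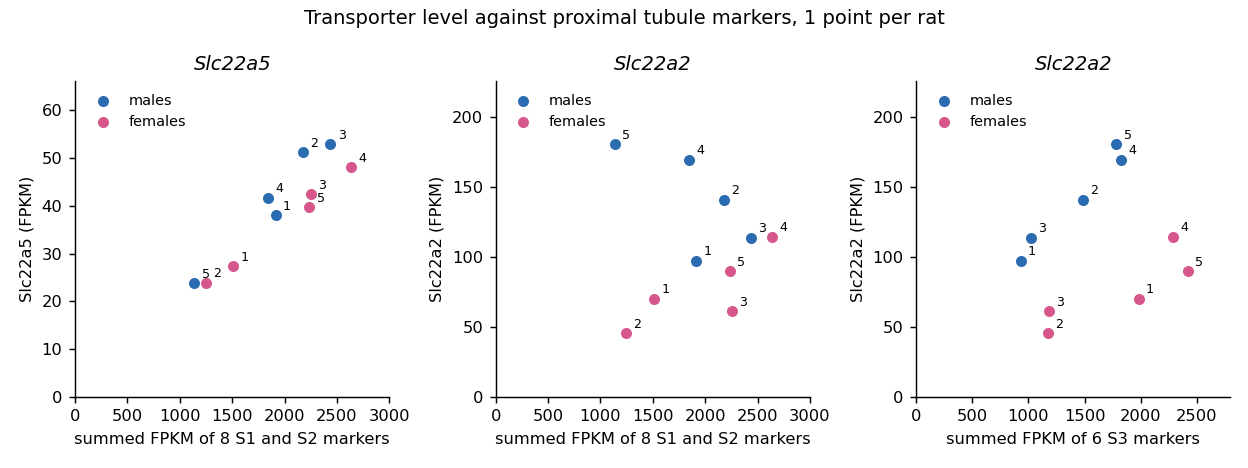
Transporters against proximal tubule markers, 1 numbered point per rat. The horizontal axes give the summed FPKM of 8 S1 and S2 markers or of 6 S3 markers and the vertical axes the FPKM of *Slc22a5* or *Slc22a2*. *Slc22a5* lies along the S1 and S2 sum in both sexes, and *Slc22a2* lies along the S3 sum separately in each sex, at 9.29% to 11.1% of it in males and 3.54% to 5.16% in females.

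Markers of other cells are given here beside *Slc22a2*. The summed level of 5 fibroblast and pericyte markers was 244 to 328 in males and 71.1 to 229 FPKM in females, with 1 of 5 called (*Col3a1*, a fibrillar collagen, 81.8 ± 13.1 against 39.5 ± 14.9 FPKM, SD, n = 5, log2 fold change -1.14, adjusted p = 0.0477) and none of the 5 at 0. All 5 had an unadjusted p of at most 0.05 with a lower mean in females, where 15.7% of all genes tested had such a p in either direction. Limma called 2.40% of all genes tested in either direction. Limma-voom called 2 of the 5, and of all 17631 genes it called 247 higher and 257 lower in females. The call for *Col3a1* was lost in 14 of 24 alternatives, with an adjusted p of 0.0262 to 0.130, among them those without male 1, 2, 3, 4 or 5 or female 1 or 5. The summed level of 5 injured tubule markers was 3279 to 7180 in males and 902 to 5572 FPKM in females, mostly *Spp1*, with 0 of 4 tested genes called and *Krt20* at 5 reads or fewer. Their part in the difference of *Slc22a2* was not tested. The 2 rats with the lowest injured tubule sum, females 4 and 5, had the highest *Slc22a2* of their sex, and the rat with the highest sum, male 5, had the highest *Slc22a2* of all.

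Relative to the exit carrier *Slc47a1*, *Slc22a2* had ranges that were separate between the sexes. The ratio of *Slc22a2* to *Slc47a1* was 0.928, 0.982, 0.814, 1.198 and 2.18 in males 1 to 5, and 0.542, 0.595, 0.435, 0.585 and 0.506 in females 1 to 5. No male overlapped a female, where 1.92% of all genes tested have separate ranges relative to *Slc47a1*. The ratio of *Slc22a2* to the carnitine carrier *Slc22a5* was 2.15 to 7.56 in males and 1.44 to 2.56 in females, and these ranges overlapped. The ratio of *Slc22a5* to its neighbour *Slc22a4* was 3.26 to 6.41 in males and 3.70 to 8.21 in females, which also overlapped. The ratios are given as descriptions without a test.

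**Figure D3:**
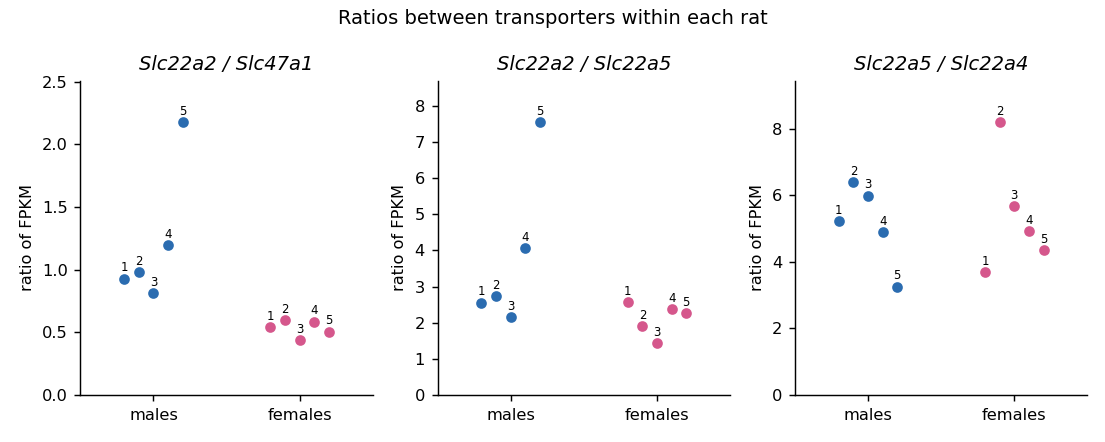
Ratios of FPKM between transporters within each rat, with the ratio from 0 on the vertical axes and 1 numbered point per rat. *Slc22a2* over *Slc47a1* is at least 0.814 in males and at most 0.595 in females, and *Slc22a2* over *Slc22a5* and *Slc22a5* over *Slc22a4* overlap between the sexes.

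*Slc22a3* (ENSRNOG00000022946, chromosome 1 from 48433079 to 48521256, plus strand), which encodes the monoamine carrier OCT3, was close to the limit of detection. It had 0 to 9 reads per rat, 22 in all males and 34 in all females. Its level was 0.130, 0.0618, 0.119, 0.0697 and 0 in males 1 to 5, and 0.137, 0.183, 0.0510, 0.0973 and 0.144 FPKM in females 1 to 5. The means of 0.0762 ± 0.0520 and 0.123 ± 0.0503 FPKM (SD, n = 5) differed by less than the rats of a group did among themselves (p = 0.198 by the exact permutation test). The overall mean of 0.0994 FPKM was just under the filter, so limma did not test it. Its neighbour *Slc22a2*, 72817 bases away on the other strand, was at 45.5 FPKM or more in every rat. *Plg*, which lies 515 bases beyond *Slc22a3*, had at most 7 reads in a rat.

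*Slc22a5* (ENSRNOG00000008432, chromosome 10 from 39201107 to 39323853, minus strand), which encodes the carnitine transporter OCTN2, was abundant in both sexes. Its level was 38.0, 51.3, 52.9, 41.7 and 23.9 in males 1 to 5, and 27.4, 23.9, 42.4, 48.1 and 39.7 FPKM in females 1 to 5. Male 5 and female 2 were the lowest of their sex, and the other rats of the groups overlapped. The means were 41.6 ± 11.7 in males and 36.3 ± 10.3 FPKM in females (SD, n = 5), with a log2 fold change of -0.19 (SE 0.25, 95% interval -0.73 to 0.35, adjusted p = 0.772). The exact permutation test gave p = 0.468, two-sided. With each rat left out the log2 fold change ranged from -0.38 without male 5 to -0.052 without female 2, and it was -0.30 without female 4 and about -0.10 or nearer 0 without male 2, male 3 or female 1. On a linear scale this interval runs from 0.602 to 1.28 times the male level, so smaller sex differences were not resolved with 5 rats a group.

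*Slc22a5* followed the summed S1 and S2 markers, of which *Slc34a1* made up the most. After subtracting the mean of each sex, its r over the 10 rats was 0.91 to 0.97 with 6 of the 8 markers, 0.79 with *Lrp2*, the megalin gene, and 0.49 with *Cubn*. As a percent of their sum it was 1.98, 2.36, 2.17, 2.26 and 2.09 in males 1 to 5, and 1.81, 1.91, 1.88, 1.83 and 1.77 in females 1 to 5. All males lay above all females, by a small margin, where 1.72% of all genes tested have separate ranges by this measure. With the log2 S1 and S2 sum as a covariate, added after the values were seen, the log2 fold change was -0.24 (SE 0.064) with a limma adjusted p of 0.0706, which did not pass. In the sum, *Cubn*, the receptor for filtered vitamin-binding proteins, was 49.98 ± 12.2 in males and 81.0 ± 11.9 FPKM in females (SD, n = 5, adjusted p = 0.0467), and it was the only one of the 8 markers called. That call was lost in 15 of 24 alternatives (adjusted p of 0.0226 to 0.130), and of the single rats left out only male 4 and female 2 left it in place. *Slc22a5* relative to *Cubn* was separate between the sexes, and relative to each of the other 7 markers it overlapped, with no share of all genes computed for single markers. *Slc22a2* as a percent of the same sum was 4.66 to 15.8 in males and 2.71 to 4.64 in females, so these ranges nearly touched.

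*Slc22a4* (ENSRNOG00000046195, chromosome 10 from 39330731 to 39373437, minus strand), which encodes OCTN1, lies 6877 bases from *Slc22a5* on the same strand and was lower than it in every rat. Its level was 7.27, 8.004, 8.83, 8.51 and 7.32 in males 1 to 5, and 7.40, 2.91, 7.47, 9.76 and 9.11 FPKM in females 1 to 5. Female 2 was far below the other 9 rats, with 65 reads. The means were 7.99 ± 0.698 in males and 7.33 ± 2.68 FPKM in females (SD, n = 5), with a log2 fold change of -0.23 (SE 0.28, 95% interval -0.83 to 0.38, adjusted p = 0.754; exact permutation test, two-sided, p = 0.770). Without female 2 the sign turned, to 0.072. On the far side of *Slc22a4*, *Pdlim4*, a cytoskeletal adaptor, was 13.5 ± 2.43 in males and 6.91 ± 2.70 FPKM in females (SD, n = 5, adjusted p = 0.0908). On the far side of *Slc22a5*, *Irf1*, an interferon-regulated transcription factor, was 18.7 ± 3.66 against 14.0 ± 3.50 FPKM (SD, n = 5, adjusted p = 0.296).

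*Slc47a1* (ENSRNOG00000057404, chromosome 10 from 47632192 to 47666921, minus strand), which encodes the luminal exit carrier MATE1, was at a level like that of *Slc22a2*. It was 105, 143, 140, 141 and 82.7 in males 1 to 5, and 129, 76.5, 140, 195 and 177 FPKM in females 1 to 5. The highest values were those of females 4 and 5 and the lowest those of female 2 and male 5. The means were 122 ± 27.3 in males and 144 ± 46.04 FPKM in females (SD, n = 5), with a log2 fold change of 0.19 (SE 0.25, 95% interval -0.35 to 0.74, adjusted p = 0.768; exact permutation test, two-sided, p = 0.421). With each rat left out the log2 fold change ranged from 0.061 without male 5 to 0.40 without female 2, and it was also low without female 4 (0.066) and female 5 (0.10).

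*Slc47a2* (ENSRNOG00000038055, chromosome 10 from 47588497 to 47630799, minus strand), a further MATE gene that lies 1392 bases from *Slc47a1*, had 7 to 26 reads per rat. Its level was 0.302, 0.470, 0.445, 0.340 and 0.272 in males 1 to 5, and 0.452, 0.331, 0.483, 0.527 and 0.952 FPKM in females 1 to 5. Of the females, 3 exceeded the highest male, and female 5 was the highest of all. The means were 0.366 ± 0.0876 and 0.549 ± 0.237 FPKM (SD, n = 5), with a log2 fold change of 0.43 (SE 0.27, 95% interval -0.16 to 1.02, adjusted p = 0.482; exact permutation test, two-sided, p = 0.0794). The result moved with single rats. Without female 2 the log2 fold change was 0.56 with an exact permutation p of 0.0159, without female 5 it was 0.24 with an exact permutation p of 0.198, and these values rest on few reads. *Slc47a1* was 186 to 416 times as high as *Slc47a2* in the same rat, so nearly all MATE transcript counted was *Slc47a1*.

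In all 10 rats, *Slc22a2* and *Slc47a1* were above *Slc22a5*, then came *Slc22a4*, *Slc47a2* and *Slc22a3*. *Slc47a1* exceeded *Slc22a2* in 3 of 5 males, within the spread between rats, and in 5 of 5 females, by 1.68 to 2.30 times. Of the summed FPKM of the 6 genes, *Slc22a2* made up 36.0% to 61.2% in males and 24.3% to 31.0% in females. *Slc47a1* made up 28.1% to 44.2% in males and 51.2% to 55.9% in females, and *Slc22a5* 8.10% to 16.8% and 11.7% to 16.8%.

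The genes most like each transporter across the 10 rats were found by Pearson's r of log2(FPKM + 0.1) among 11954 genes whose mean reached 1 FPKM and that had more than an assembly or clone name, as a description. The 10 points are whole cortex libraries, so their composition and depth enter every r, and the value after subtracting the mean of each sex is given second. For *Slc22a2* they were *Prom1*, a membrane glycoprotein of apical protrusions (0.98, 0.96), *Hsd11b1*, which regenerates active glucocorticoid (0.97, 0.96), and *Sult1b1*, a sulfotransferase (0.97, 0.96). *Hsd11b1* was 107 in males and 57.5 FPKM in females, with a log2 fold change of -0.91 and a limma adjusted p of 0.0250. Since r over all rats includes the difference between the sexes, a gene chosen by it is likely to share that difference, and its p is no separate evidence. The call for *Hsd11b1* was lost without male 2, 4 or 5 or female 1, 3 or 5 (adjusted p of 0.00758 to 0.0751 with each rat left out). *Prom1* was 28.3 against 16.2 FPKM (adjusted p = 0.0896) and *Sult1b1* 49.4 against 33.2 FPKM (adjusted p = 0.195).

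For *Slc22a5* the most alike were *Slc13a3*, the basolateral dicarboxylate transporter (0.97, 0.98), *Arl6ip1* (0.97, 0.97) and *Shmt2*, the mitochondrial serine hydroxymethyltransferase (0.97, 0.98). For *Slc22a4* they were *Abcb8*, a mitochondrial ABC transporter (0.99, 0.99), *Gmppb* (0.98, 0.98) and *Fam109a* (0.97, 0.97). For *Slc47a1* they were *Ap2a2*, a clathrin adaptor subunit (0.98, 0.98), *Tas1r2* (0.97, 0.97) and *Dlst*, a subunit of the 2-oxoglutarate dehydrogenase complex (0.97, 0.98). For *Slc47a2* they were *Cdk2ap2* (0.96, 0.95), *Cpn1* (0.95, 0.94) and *Gpr137b* (0.94, 0.92). None of these 12 genes had an adjusted p under 0.05. *Slc22a3* was too low for this comparison.

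Other genes of organic cation and carnitine handling were read against the 2.40% of all genes tested that were called in either direction. Of 2 other organic cation transporters tested, none was called in either direction. *Slc22a15* was 7.20 ± 1.20 in males and 6.99 ± 1.48 FPKM in females, and *Abcb1a*, the drug efflux pump P-glycoprotein, was 4.08 ± 1.12 and 4.55 ± 1.26 FPKM (SD, n = 5). *Slc29a4*, the plasma membrane monoamine transporter, had 3 reads or fewer. Of 7 choline and thiamine transporters tested, *Slc44a5* rose in females, to 0.603 ± 0.293 FPKM against 0.0891 ± 0.0437 FPKM in males (SD, n = 5, log2 fold change 1.80, SE 0.36, adjusted p = 0.0243, 2 to 76 reads), and none fell. Its log2 fold change was 0.54 with a pseudocount of 1, 2.59 with 0.01 and 2.65 by limma-voom, with a call in each. The call for *Slc44a5* was lost without male 2, 3 or 4 or female 1, 4 or 5 (adjusted p of 0.00851 to 0.0661 with each rat left out). *Slc44a1*, the widely expressed choline carrier, was 19.95 ± 0.675 against 16.5 ± 1.58 FPKM (SD, n = 5, adjusted p = 0.105), and *Slc19a2*, a thiamine carrier, was 8.82 ± 0.798 against 11.3 ± 1.19 FPKM (SD, n = 5, adjusted p = 0.0903). Of the choline and thiamine transporters, *Slc44a1*, *Slc19a2* and *Slc44a5* had separate ranges, where 5.10% of all genes tested had. The median log2 fold change was 0.050 for the 2 organic cation transporters and 0.14 for the choline and thiamine transporters.

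None of 3 carnitine synthesis genes was called. *Tmlhe*, the first enzyme of the route, was 102 ± 17.0 in males and 84.8 ± 23.5 FPKM in females, and *Aldh9a1* was 88.2 ± 14.8 and 97.1 ± 22.05 FPKM (SD, n = 5). *Bbox1*, the last enzyme, was barely detected, at 0.190 ± 0.0611 and 0.351 ± 0.0607 FPKM (SD, n = 5, 4 to 17 reads, adjusted p = 0.225), with separate ranges of 0.114 to 0.253 in males and 0.280 to 0.410 FPKM in females. None of 7 genes of the carnitine shuttle and acyltransferases was called either. *Crat*, carnitine acetyltransferase, was 65.5 ± 8.29 and 63.0 ± 11.1 FPKM, and *Cpt1a*, which loads long-chain acyl groups on carnitine, was 49.0 ± 6.65 and 45.6 ± 4.07 FPKM (SD, n = 5). The median log2 fold change was 0.12 for carnitine synthesis and 0.051 for the shuttle, against -0.0066 over all genes tested. *Crot*, the peroxisomal octanoyltransferase, was 31.9 ± 3.86 and 46.2 ± 10.4 FPKM (SD, n = 5, adjusted p = 0.121), and *Cpt1b* was 2.13 ± 0.145 and 2.76 ± 0.297 FPKM (SD, n = 5, adjusted p = 0.156). Of the 10 carnitine genes, *Bbox1* and *Cpt1b* had separate ranges, where 5.10% of all genes tested had.

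**Figure D4:**
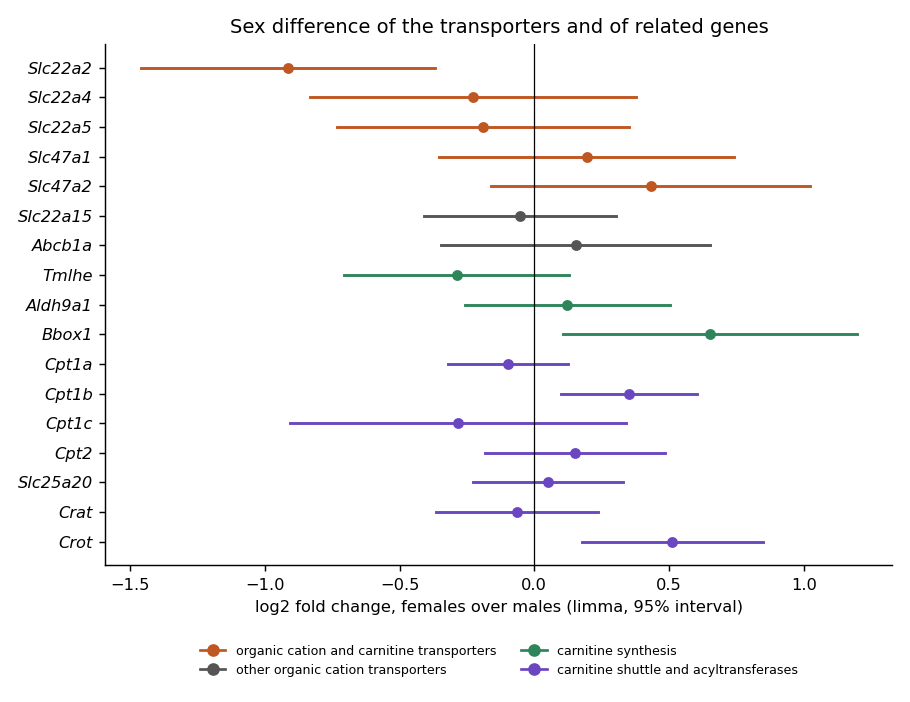
Sex difference of the transporters that could be tested, of other organic cation transporters and of carnitine genes. Points give the limma log2 fold change of females over males on the horizontal axis and lines its 95% interval, not adjusted for the number of genes. *Slc22a2* lies at -0.91 with an interval below 0, and the other 4 members have intervals that include 0. Of the other genes, *Bbox1*, *Cpt1b* and *Crot* have intervals above 0. None of the 17 genes passed the adjusted p.

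Enzymes that metabolise substrates of these carriers were not called in 6 of 6 cases. *Hnmt*, which methylates histamine, was 61.0 ± 29.3 in males and 31.3 ± 17.8 FPKM in females (SD, n = 5, adjusted p = 0.327), and *Ddc*, which forms dopamine and serotonin, was 25.5 ± 9.93 and 33.6 ± 11.2 FPKM (SD, n = 5, adjusted p = 0.580). *Inmt*, which methylates indolamines, was 19.5 ± 6.29 and 11.9 ± 1.93 FPKM (SD, n = 5, adjusted p = 0.130; exact permutation test, two-sided, p = 0.0159) and was the only one of the 6 with an unadjusted limma p of at most 0.05. The median log2 fold change of these 6 genes was -0.42. The 5 scaffold and proton gradient partners of the luminal membrane were not called (median log2 fold change 0.20), with *Slc9a3r1* at 357 ± 40.7 and 413 ± 69.6 FPKM and *Pdzk1* at 324 ± 50.2 and 334 ± 103 FPKM (SD, n = 5).

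Of 10 entries for transcription factors and hormone receptors, 2 fell in females and none rose (median log2 fold change -0.071). *Prlr*, the prolactin receptor, was 19.6 ± 9.70 in males and 4.59 ± 1.20 FPKM in females (SD, n = 5, log2 fold change -1.99, SE 0.29, adjusted p = 0.00369). *Esr1*, the oestrogen receptor, was 5.50 ± 0.826 and 2.40 ± 0.791 FPKM (SD, n = 5, log2 fold change -1.20, SE 0.20, adjusted p = 0.00793). Both calls held in all 24 alternatives. *Hnf4a*, a transcription factor of the tubule, was 143 ± 13.2 in males and 141 ± 31.4 FPKM in females (SD, n = 5).

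The 11 lists of related genes and markers with no call held 50 genes tested, of which limma-voom called none. These lists were pooled because they had no call, and 12 of the 50 genes had an unadjusted p of at most 0.05, where 15.7% of all genes tested did. Markers of the remaining cell types were counted to show what else the cortex samples held. *Kcnj1* of 4 thick ascending limb genes (84.0 ± 7.54 and 130 ± 9.93 FPKM, SD, n = 5, adjusted p = 0.00263), *Avpr2* of 5 principal cell genes (13.6 ± 1.75 and 18.4 ± 1.21 FPKM, SD, n = 5, adjusted p = 0.0469) and *Atp6v0d2* of 5 intercalated cell genes (32.1 ± 3.31 and 48.3 ± 8.65 FPKM, SD, n = 5, adjusted p = 0.0351) rose in females. *Kcnj1* was called in all 24 alternatives, with an adjusted p of at most 0.0344. The call for *Avpr2* was lost in 14 of 24 (0.0240 to 0.155), with only male 1 and female 2 of the single rats left out keeping it. The call for *Atp6v0d2* was lost in 11 of 24 (0.0215 to 0.150), among them those without male 1, 2, 3 or 4 or female 3, 4 or 5. All 5 intercalated cell genes had an unadjusted p of at most 0.05 with a higher mean in females. No gene was called among 5 podocyte, 2 distal convoluted tubule, 5 endothelial and 5 leukocyte markers, and *Pvalb* of the distal convoluted tubule was at 0 in all rats.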

How the data were processed

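Poly(A)-selected RNA of renal cortex from 5 male and 5 female PCK rats was sequenced by the authors' provider and mapped to Rnor_6.0. The authors deposited 1 table of FPKM for 32545 genes. The submitters' processing notes name fastp, HISAT2 2.0.5, StringTie 1.3.3b and featureCounts 1.5.0-p3 without saying what each did, and whether strand was used is not given in the sources used here. The authors' DESeq2 test on counts was replaced by limma because the deposited values are FPKM. The FPKM scale already equalises the median ratio of libraries. Whole reads were recovered from FPKM and gene length for 100% of values (within 0.01).

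Groups follow the sex in the sample labels. The main test was limma 3.58.1 in R 4.3.3 (lmFit, eBayes with trend) on log2(FPKM + 0.1) for the 17631 genes whose mean reached 0.1 FPKM, with Benjamini-Hochberg adjustment over all of them and a threshold of 0.05. Member and list genes were compared one at a time by a two-sided exact permutation test on mean FPKM, in Python 3.11.15, numpy 2.4.6, pandas 2.3.3 and scipy 1.17.1. Fold changes on this log2 scale understate changes of genes near the pseudocount. P-values set the difference between the sexes against the spread between these rats. They treat the rats as independent, although the rats were siblings within different litters. The procedures were tested on simulated data.

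Genes named are the 6 members in every rat, of each list the genes with an adjusted p of at most 0.05 and otherwise up to 2 of the highest level, the 3 genes most alike in pattern to each member, the nearest genes on each side, and Y-linked genes. Further genes of the lists, such as *Crot*, *Cpt1b*, *Bbox1*, *Slc44a1*, *Slc19a2*, *Inmt*, *Slc5a10*, *Slc1a1*, *Slc16a9* and *Slc6a18*, were named after their values were seen. Some genes that belong to the lists or lie beside a member are not reported here and were left out of the list counts. Members and lists were chosen with earlier results of these data known, and the S3 ratios and covariates were chosen after the values were seen. Leaving out male 5 and female 2 together was not planned either. *Slc22a16*, *Slc22a21*, *Abcb1b* and *Flvcr1* were not analysed here, as no symbol matched. Alternatives covered the pseudocount, filter, scaling, eBayes options, replicate block, limma-voom, each library left out, male 5 and female 2 left out together, and marker sums as covariates. Promoter windows came from RefSeq (GRCr8), whose coordinates are separate from the Rnor_6.0 positions of the genes.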

Additional observations from a re-analysis of the deposited data

How the results depend on the processing

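Of 24 alternatives for *Slc22a2*, 21 kept its adjusted p above 0.05, and none changed the sign of its log2 fold change (adjusted p of 0.000652 to 0.189). Median-ratio scaling, 1 of the 24, could hardly differ from the main fit, since the FPKM scale already equalises that ratio. Quantile normalization gave a log2 fold change of -0.995 and the S3 covariate -1.21, both with an adjusted p under 0.05. Leaving out each library gave -1.08 to -0.75, with a call only without female 4, and leaving out male 5 and female 2 together gave -0.65. The exact permutation p of *Slc22a2* was 0.0159 to 0.0476 with each library left out and 0.0857 without male 5 and female 2 together. For *Slc22a4* the log2 fold change ranged from -0.36 to 0.072 with each library left out. It turned positive without female 2 (0.072, exact permutation p = 0.484) and without male 5 and female 2 (0.042, exact permutation p = 0.686), and its exact permutation p ranged from 0.429 to 0.881 with each library left out. The exact permutation p of *Slc47a2* ranged from 0.0159, without female 2, to 0.198. *Slc22a5* and *Slc47a1* kept their sign and an adjusted p above 0.05 in all 24 alternatives, but with each library left out their log2 fold changes ranged from -0.38 to -0.052 and from 0.061 to 0.40. *Slc22a3* could be fitted only without a filter (log2 fold change 0.36, adjusted p = 0.632), and *Slc47a2* had no value with a filter at 1 FPKM. The cause of these changes was not tested.

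Past both thresholds, 109 genes were higher and 123 lower in females. A pseudocount of 1 gave 65 and 72, the adjusted p alone 223 and 201, and leaving out each library 80 to 114 and 88 to 146. Scaling to equal total reads gave 97 and 135 and moved the median log2 fold change of all genes to -0.08, and quantile normalization gave 121 and 105. Same-numbered males and females did not deviate together over the genes tested as a whole (correlations of -0.10 to 0.07). These correlations cannot show whether rats of the same number shared a litter. With the replicate block, 89 genes were higher and 87 lower. *Slc22a2* was then at -0.91 with a limma adjusted p of 0.0677, and its SE was 0.17, against 0.25 without the block. The block changed the call of no transporter.

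With 5 rats a group, intervals of about 0.5 on the log2 scale on either side leave moderate sex differences of *Slc22a4*, *Slc22a5* and *Slc47a1* unresolved. *Slc22a3* and *Slc47a2* are limited by reads (0 to 9 and 7 to 26 per rat). The litter of each rat, the age range and the absence of rats without the mutation limit what a sex difference here can be tied to.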
